A study of Mus musculus with 31 samples.

Results

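The genes described here encode the growth factors pleiotrophin (Ptn) and midkine (Mdk) and 7 of the proteins they bind: the receptor phosphatase Ptprz1, the receptor tyrosine kinase Alk, the heparan sulfate proteoglycans Sdc1, Sdc2, Sdc3 and Sdc4 (syndecans) and the nucleolar and cell surface protein nucleolin (Ncl). They were chosen by name, and all 9 were found once among the 47729 genes of the count table, in 31 RNA-seq libraries. Each library was made from a piece of nerve cut by laser from mouse embryos: olfactory nerve from the mucosa (E11.5, E13.5, E16.5), the olfactory nerve layer (ONL) on the surface of the olfactory bulb (E13.5), the outer and inner parts of that layer (E16.5), and, from the same age, trigeminal nerve. Olfactory ensheathing cells (OECs) are the glia of the olfactory nerve and ONL, and Schwann cells are the glia of the trigeminal nerve. All groups came from untreated embryos of a reporter line, Sox10:Histone2BVenus, a transgene under Sox10 control that marks glial nuclei and guided the cutting. The pieces were not sorted, so they also held axons, connective tissue and vessels, and in such bulk samples fewer cells of a type and less RNA per cell cannot be told apart. Outer and inner ONL were cut by distance from the bulb. The study reported that, judged by known marker genes, these cuts failed to part inner from outer OECs of the ONL.

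Pleiotrophin and midkine are small secreted proteins that bind heparin and form a family of their own. Binding of either to the extracellular chondroitin sulfate chains of Ptprz1 inhibits its phosphatase activity, so that tyrosine phosphorylation of its substrates rises. Syndecans bind both factors through heparan sulfate chains. In oligodendrocyte precursors, glia of the brain, Ptprz1 activity is known to hold the cells immature, and pleiotrophin, by inhibiting it, to favour their maturation.

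Labels and groups did not always match. The study's supplementary averages were recomputed from the counts: with E16.5 libraries grouped by label, the ratios of group averages to outer ONL came within 1% of the study's for all 1602 inner ONL, 1601 olfactory nerve and 1598 trigeminal genes compared. With the early libraries grouped by label, that held for 1.88% of genes at E11.5, 15.9% in the E13.5 nerve and 2% in the E13.5 ONL. It held for all genes when the 4 libraries labelled E11.5 olfactory nerve and replicate 1 labelled E13.5 olfactory nerve were taken as E13.5 ONL, replicate 1 labelled E13.5 ONL as E13.5 nerve and the other 4 labelled E13.5 ONL as E11.5 nerve. That grouping is used below, 10 of 31 libraries changed group by it, and values by label are given beside each test of early libraries. The groups then held 4 (E11.5 nerve), 7 (E13.5 nerve), 5 (E13.5 ONL), 4, 4, 4 (E16.5 nerve, outer and inner ONL) and 3 (trigeminal) libraries. Early groups held more pieces than embryos, and no label ties a piece to its embryo, so that p-values over early pieces are too small. Names such as replicate 1 follow the labels throughout. Totals ran from 3512627 to 36705535 counts, and each E11.5 and trigeminal library held at least 24218053, so depth and group cannot be told apart there. Myelinating Schwann cell markers (5 genes) summed to 2565 to 3821 CPM (counts scaled by TMM to a fixed library total) in trigeminal nerve and at most 492 in olfactory pieces. The 6 glial markers summed to 18666 to 32861 CPM in outer ONL, 20755 to 26059 in inner ONL, 1663 to 3912 in E16.5 olfactory nerve and 1484 to 1748 in trigeminal nerve. Single glial markers did not all follow these sums (edgeR adjusted p under 0.05). In outer ONL 4 were higher and 0 lower than in olfactory nerve, and 3 higher and 1 lower than in trigeminal nerve. In inner ONL these counts were 4 and 2, and 3 and 3. In olfactory against trigeminal nerve 1 was higher and 3 were lower.

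Ptn and Ptprz1 lie on the same chromosome (GRCm38, GENCODE M21): Ptn at chr6:36714929-36810220, minus strand, and Ptprz1 at chr6:22875502-23052916, plus strand. Mdk lies at chr2:91929805-91932297, minus strand, and Alk at chr17:71868972-72604627, minus strand. Counts were taken over the exons of each gene. The 2 promoters below are shown because their genes were the members with the highest ONL to nerve ratios at E16.5. They run from 250 bases before to 50 bases from the RefSeq start (GRCm38.p6), Ptn at chr6:36810130-36810429 on the minus strand and Ptprz1 at chr6:22875252-22875551 on the plus strand, and capitals mark GC boxes (GGGCGG) on either strand:
Ptn: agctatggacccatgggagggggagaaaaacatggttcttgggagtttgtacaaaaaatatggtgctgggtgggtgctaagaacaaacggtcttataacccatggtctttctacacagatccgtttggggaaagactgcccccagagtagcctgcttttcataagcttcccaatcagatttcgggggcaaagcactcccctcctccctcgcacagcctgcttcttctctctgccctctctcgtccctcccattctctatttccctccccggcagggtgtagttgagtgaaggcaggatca
Ptprz1: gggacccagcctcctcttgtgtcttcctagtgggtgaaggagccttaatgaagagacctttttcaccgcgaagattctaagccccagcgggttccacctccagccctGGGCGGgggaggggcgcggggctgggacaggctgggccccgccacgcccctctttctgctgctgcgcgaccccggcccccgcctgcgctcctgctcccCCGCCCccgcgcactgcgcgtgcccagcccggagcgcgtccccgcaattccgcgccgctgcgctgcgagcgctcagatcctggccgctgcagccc
The Ptprz1 window held 71.7% G or C, 29 CG dinucleotides and 2 GC boxes, a motif held by 35.7% of all 32851 promoters. The Ptn window held 52% G or C, close to the median of 52.7% over all promoters, 6 CG dinucleotides and no GC box. Neither window held the SOX factor core motifs ACAAAG (18.7% of promoters) or AACAAT (10.7%), or the TATA box letters TATAAA (13.6%), on either strand. Of the other members, 5 had a RefSeq promoter, and Mdk and Sdc2 had no entry.

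At E16.5 the ligand gene Ptn and the receptor gene Ptprz1 were both several fold higher in outer and inner ONL than in either nerve, whereas Sdc1, Sdc2 and Sdc4 were lower there. Mdk and Ncl differed less. Alk was not tested at this stage because no group reached the count minimum. Against olfactory nerve, 5 of the 8 members tested were called in outer ONL by edgeR's quasi-likelihood test at an adjusted p under 0.05, 2 higher and 3 lower, where 25.7% of 17800 genes were called (10.3% higher, 15.4% lower). In inner ONL 7 of 8 were called, 4 higher and 3 lower, against 40.3% of genes (19.1% higher, 21.2% lower). Against trigeminal nerve, 7 of 8 were called in outer ONL (4 higher, 3 lower) against 31.3% of genes (15.1% higher, 16.2% lower, so that 48.3% of calls were higher, and 60.3% with scaling by total counts alone), and 6 of 8 in inner ONL (3 higher, 3 lower) against 43.9% of genes (22.1% higher, 21.7% lower). Both ONL groups were set against the same nerve libraries.

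Ptn held 8670, 5624, 5795 and 5370 CPM in outer ONL and 6671, 6519, 6776 and 5708 CPM in inner ONL. It held 1424, 2568, 1277 and 1296 CPM in olfactory nerve, and 1457, 1311 and 1080 CPM in trigeminal nerve. Each ONL library was above each nerve library, and nerve replicate 2 and outer ONL replicate 1 stood above their own groups. The mean was 6365 ± 1547 CPM (SD, n = 4) in outer ONL against 1641 ± 622 (SD, n = 4) in nerve, a log2 fold change of 1.87 ± 0.21 (SE; Benjamini-Hochberg adjusted p = 4.94e-06, quasi-likelihood test of edgeR). Inner ONL was 1.93 ± 0.21 above olfactory nerve (edgeR adjusted p = 1.38e-06). Against trigeminal nerve the log2 fold changes were 2.29 ± 0.24 in outer ONL (edgeR adjusted p = 1.24e-06) and 2.34 ± 0.24 in inner ONL (edgeR adjusted p = 4.56e-07).

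Ptprz1 held 516, 440, 500 and 502 CPM in outer ONL and 527, 552, 483 and 585 CPM in inner ONL. It held 47.5, 90.5, 76.4 and 58.8 CPM in olfactory nerve and 90.4, 110 and 89.3 CPM in trigeminal nerve. The lowest ONL library, at 440 CPM, lay above the highest nerve library, at 110 CPM. The log2 fold change against olfactory nerve was 2.76 ± 0.17 in outer ONL (edgeR adjusted p = 1.66e-08), the largest of any member in that comparison, and 2.94 ± 0.17 in inner ONL (edgeR adjusted p = 2.52e-09). Against trigeminal nerve it was 2.32 ± 0.19 in outer ONL (edgeR adjusted p = 7.47e-08) and 2.50 ± 0.19 in inner ONL (edgeR adjusted p = 1.62e-08). Ptprz1 differed by 0.18 ± 0.16 (log2) between inner and outer ONL. Markers of olfactory bulb neurons and progenitors (6 genes) summed to 9.66 to 152 CPM in outer ONL and 378 to 779 CPM in inner ONL. They summed to 93.2 to 192 CPM in olfactory nerve and 199 to 226 CPM in trigeminal nerve. The part of bulb tissue in the Ptprz1 levels was not tested.

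Mdk, the other ligand gene, held 709, 911, 574 and 810 CPM in outer ONL and 599, 373, 610 and 462 CPM in inner ONL. It held 441, 734, 512 and 491 CPM in olfactory nerve and 401, 366 and 460 CPM in trigeminal nerve. Outer ONL and olfactory nerve overlapped, whereas each outer ONL library was above each trigeminal library. Of the 4 ONL to nerve comparisons Mdk was called in 1, outer ONL against trigeminal nerve (log2 fold change 0.86 ± 0.21, edgeR adjusted p = 0.00443). Against olfactory nerve the difference in outer ONL was 0.39 ± 0.19 (edgeR adjusted p = 0.155), and without olfactory nerve replicate 2 it was 0.56 with an edgeR adjusted p of 0.0389. A pseudogene named after Mdk held at most 1 count in any library.

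**Figure D1:**
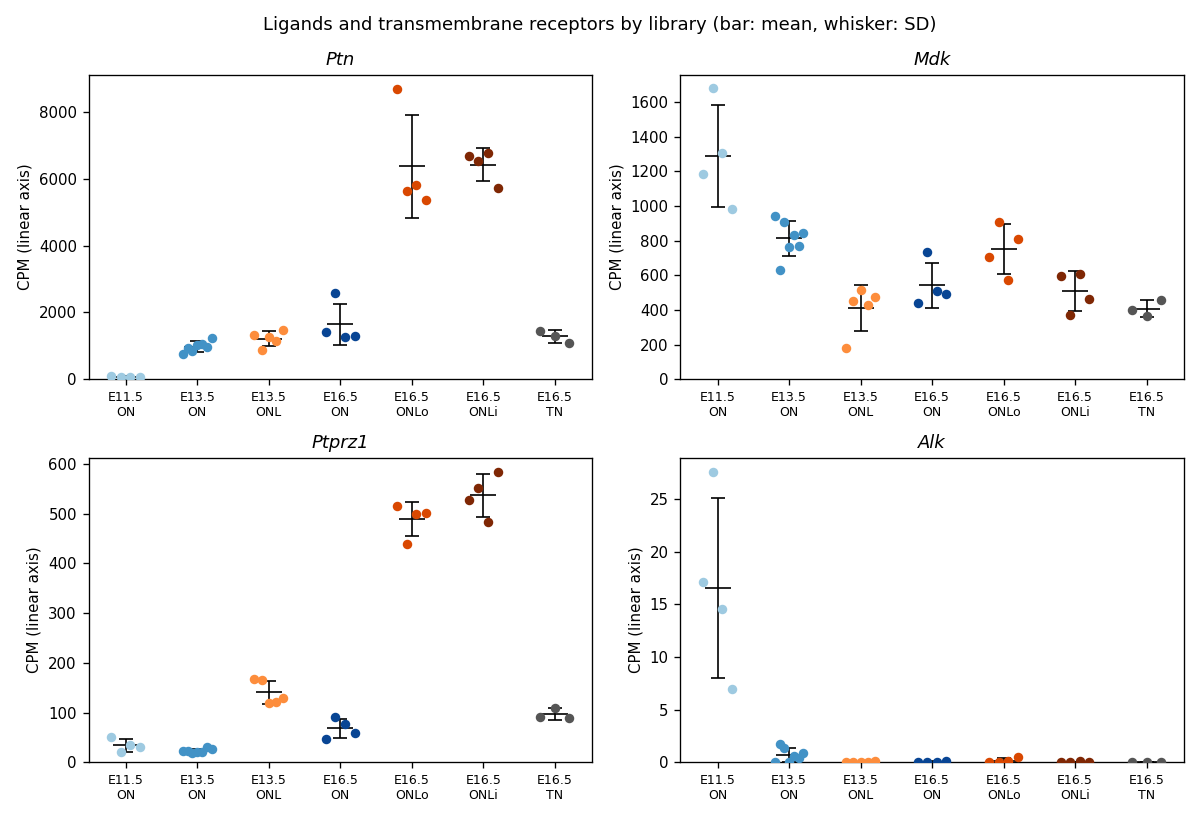
CPM of Ptn, Mdk, Ptprz1 and Alk (vertical axes, linear, TMM-scaled) in each of 31 libraries (points) by group, with the mean (bar) and SD (whisker). ON is olfactory nerve, ONLo and ONLi are outer and inner ONL and TN is trigeminal nerve. Ptn lay at 5370 CPM or more in ONLo and ONLi, Ptprz1 at 440 or more, and Alk was above 2 CPM only at E11.5.

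Levels of different genes can be set side by side only per length, and per kb of exon (union of exons, GENCODE basic transcripts) Ptn was first in the E16.5 ONL. In outer ONL the means were 1854 CPM per kb for Ptn, 567 for Mdk, 81.1 for Ncl, 48.9 for Ptprz1, 42.8 for Sdc2, 25.2 for Sdc1 and 9.30 for Sdc3, with Sdc4 between the last 2. Ncl and Ptprz1 did not overlap in CPM per kb, whereas Ptprz1 (44.0 to 51.6) overlapped Sdc2 (34.5 to 54.1), and Sdc2 overlapped Sdc1 (19.2 to 34.9). In E16.5 olfactory nerve the order was Ptn 478, Mdk 411, Sdc2 66.4, Ncl 59.1, Sdc1 45.6, Sdc4 21.4, Ptprz1 6.83 and Sdc3 5.94 CPM per kb. There Ptn (372 to 748) overlapped Mdk (333 to 554), Sdc2 (57.4 to 73.4) overlapped Ncl (56.5 to 64.1), Sdc1 (29.2 to 59.6) overlapped both of these, and Ptprz1 (4.75 to 9.05) overlapped Sdc3 (3.34 to 9.90). The length used for Ncl was 8202 bases and for Ptprz1 10000 bases. Other transcript sets would give other values per kb and could change the order and the overlaps.

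The ratio of Ptn to Mdk per kb put the groups in an order of their own. Its geometric mean was 0.0252 at E11.5 (range 0.0166 to 0.0338) and 0.463 in E13.5 nerve (0.308 to 0.571), so that Mdk was above Ptn in every library of both groups as grouped here. The ratio was 1.13 in E16.5 olfactory nerve (0.961 to 1.35), 1.20 in trigeminal nerve (0.905 to 1.40) and 1.19 in E13.5 ONL (0.743 to 2.79), 3 groups that overlapped each other. By label the E11.5 group instead had means of 336 CPM per kb for Ptn and 299 for Mdk, the E13.5 nerve 296 and 575, and the E13.5 ONL 91.7 and 906, so that the order of the mean levels at E11.5 and in E13.5 ONL turned with the grouping. In outer ONL the ratio was 3.25 (2.38 to 4.71) and in inner ONL 4.93 (4.28 to 6.73), ranges that overlapped each other and lay above all libraries of both E16.5 nerves.

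**Figure D2:**
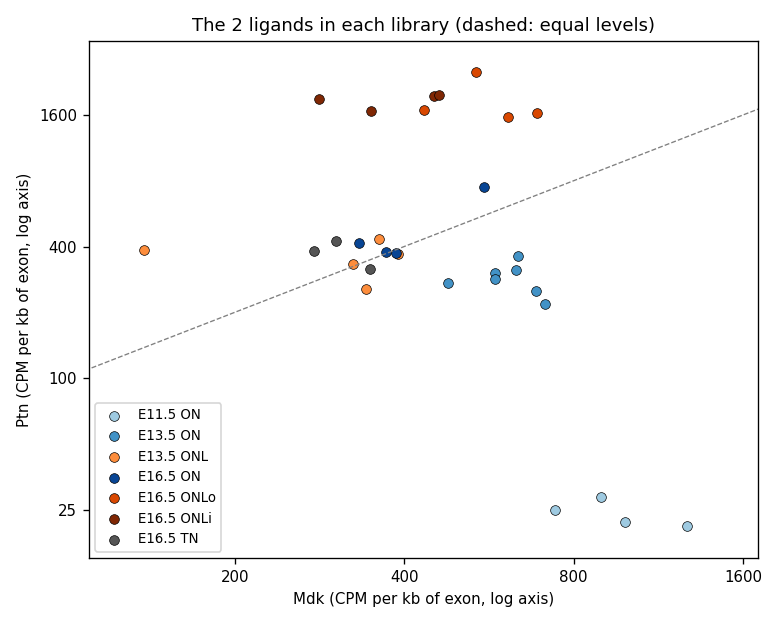
Ptn (vertical axis) against Mdk (horizontal axis), both in CPM per kb of exon on log axes, 1 point per library and 1 colour per group, with a dashed line of equal levels. The 8 ONLo and ONLi libraries lie above the line, and the 4 E11.5 and 7 E13.5 nerve libraries, as grouped here, lie below it.

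Relative to Sox10, the transcription factor gene that marks both kinds of glia, the olfactory pieces stood apart from the trigeminal ones for Ptn. These ratios are of CPM and not per length, so only their differences between groups are read. The log2 ratio of Ptn to Sox10 was 3.68 ± 0.22 (SD, n = 4) in olfactory nerve, 3.28 ± 0.39 (n = 4) in outer ONL, 3.58 ± 0.40 (n = 4) in inner ONL and 1.93 ± 0.34 (n = 3) in trigeminal nerve. The 3 olfactory groups overlapped, and each of their libraries (2.91 or more) was above each trigeminal library (2.14 or less). For Ptprz1 the log2 ratio was -0.87 ± 0.17 in olfactory nerve (range -1.03 to -0.67), -0.40 ± 0.20 in outer ONL (-0.62 to -0.20) and -1.79 ± 0.32 in trigeminal nerve (-2.05 to -1.43), 3 ranges without overlap. In inner ONL it ran from -0.48 to 0.60. Sox10 itself was 2.29 ± 0.20 (log2) higher in outer ONL than in olfactory nerve (edgeR adjusted p = 4.59e-07). Its mean was 126 CPM in olfactory nerve and 335 in trigeminal nerve, a difference that enters every such ratio. By group means, olfactory nerve was above trigeminal nerve for Mdk, the syndecans and Ncl too. The mean log2 ratios were 2.13 against 0.29 for Mdk, 0.17 against -0.92 for Sdc1 and 0.93 against -0.57 for Sdc2. They were -2.14 against -2.70 for Sdc3, -1.21 against -2.60 for Sdc4 and 1.98 against 0.48 for Ncl. For Sdc1 the libraries overlapped (-0.96 to 0.95 against -1.26 to -0.50). For Sdc3 the lowest olfactory nerve library and the highest trigeminal library both lay at -2.52. By in situ hybridization the study saw Ptn in OECs and in mesenchyme around the ONL and both nerves, but not in trigeminal Schwann cells. It proposed that this mesenchyme explains the Ptn level of the trigeminal pieces. Ptprz1 was seen in OECs and not in those Schwann cells. Mesenchyme markers (8 genes) summed to 23474 to 27611 CPM in trigeminal nerve and 9541 to 16178 in olfactory nerve. In outer and inner ONL they summed to 5730 to 11005 and 920 to 2166. How far the share of glia or mesenchyme set the differences in Ptn and Ptprz1 was not tested.

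The syndecan genes split in direction at E16.5. Sdc1, best known from epithelia, was lower in ONL than in olfactory nerve, with log2 fold changes of -0.94 ± 0.22 in outer ONL (edgeR adjusted p = 0.00454) and -1.47 ± 0.23 in inner ONL (edgeR adjusted p = 5.37e-05). Sdc2, common in mesenchyme, was also lower, at -0.71 ± 0.16 in outer ONL (edgeR adjusted p = 0.0033) and -1.51 ± 0.17 in inner ONL (edgeR adjusted p = 1.47e-06). Sdc4, a widely expressed component of cell adhesions, was lower too, at -0.46 ± 0.13 in outer ONL (edgeR adjusted p = 0.0159) and -1.26 ± 0.14 in inner ONL (edgeR adjusted p = 1.10e-06). Sdc3, the syndecan of nervous tissue, was higher in inner ONL by 1.35 ± 0.26 (edgeR adjusted p = 0.000504) and was not called in outer ONL (0.58 ± 0.26, edgeR adjusted p = 0.12; 0.93 with an adjusted p of 0.00577 without olfactory nerve replicate 2).

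Library values show how far the groups lay apart. Sdc4 held 51.3, 55.8, 55.0 and 48.3 CPM in olfactory nerve, 44.6, 35.8, 45.9 and 35.7 in outer ONL, and 23.5, 22.6, 21.7 and 22.3 in inner ONL. Sdc2 held 239, 237, 259 and 203 CPM in olfactory nerve, 143, 122, 191 and 148 in outer ONL, and 95, 76.8, 62.5 and 104 in inner ONL. For both genes the 3 groups did not overlap, with nerve highest and inner ONL lowest. Sdc1 held 188, 92.3, 182 and 113 CPM in olfactory nerve, 72.4, 60.6, 110 and 74.9 in outer ONL, and 58.5, 45.0, 51.8 and 58.8 in inner ONL. Outer ONL overlapped nerve there through outer ONL replicate 3. Sdc3 held 16.6, 49.2, 22 and 30.2 CPM in olfactory nerve, 36.5, 53.5, 37.7 and 57.3 in outer ONL, 92.1, 70.4, 83.6 and 64.0 in inner ONL and 51.0, 51.4 and 50.5 in trigeminal nerve. Inner ONL stood clear of the other 3 groups for Sdc3, and olfactory nerve replicate 2 stood among the outer ONL libraries. Mesenchyme markers (8 genes, none at the floor of 3 counts or fewer in every library of a group) summed to 9541 to 16178 CPM in olfactory nerve, 5730 to 11005 in outer ONL, 920 to 2166 in inner ONL and 23474 to 27611 in trigeminal nerve, and 6 of the 8 were called lower in outer and 8 in inner ONL than in olfactory nerve. Olfactory epithelium progenitor markers (5 genes) summed to 194 to 473 CPM in olfactory nerve, 5.37 to 25.2 in outer ONL, 8.81 to 29.3 in inner ONL and 32.2 to 57.6 in trigeminal nerve, and all 5 were called lower in outer and in inner ONL than in olfactory nerve. The part of either marker list in the lower Sdc1, Sdc2 and Sdc4 was not tested.

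Against trigeminal nerve the same 3 syndecans were lower. Sdc1 was at -1.19 ± 0.24 (log2 fold change) in outer ONL (edgeR adjusted p = 0.000912) and -1.71 ± 0.24 in inner ONL (edgeR adjusted p = 1.47e-05). Sdc2 was at -0.60 ± 0.17 in outer ONL (edgeR adjusted p = 0.0131) and -1.39 ± 0.17 in inner ONL (edgeR adjusted p = 4.45e-06). Sdc4 was at -0.47 ± 0.14 in outer ONL (edgeR adjusted p = 0.0179) and -1.27 ± 0.14 in inner ONL (edgeR adjusted p = 1.39e-06). Sdc3 was not called in outer ONL (-0.15 ± 0.28) or in inner ONL (0.62 ± 0.28, edgeR adjusted p = 0.0835). In outer ONL the Sdc4 call was lost against olfactory nerve without nerve replicate 3 or outer ONL replicate 4 (adjusted p up to 0.0864), and against trigeminal nerve without outer ONL replicate 4 or trigeminal replicate 1 or 3 (up to 0.188). The Sdc4 calls in outer ONL were also lost with no filter, with only the groups compared in the fit and with all 31 libraries in it, in the grouping used here (adjusted p 0.062 to 0.262 against olfactory nerve, 0.0797 to 0.189 against trigeminal nerve), and against trigeminal nerve with scaling by total counts (0.0656). The Sdc2 call against trigeminal nerve was lost without trigeminal replicate 2 (0.0846) or with all 31 libraries in that grouping (0.0575).

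**Figure D3:**
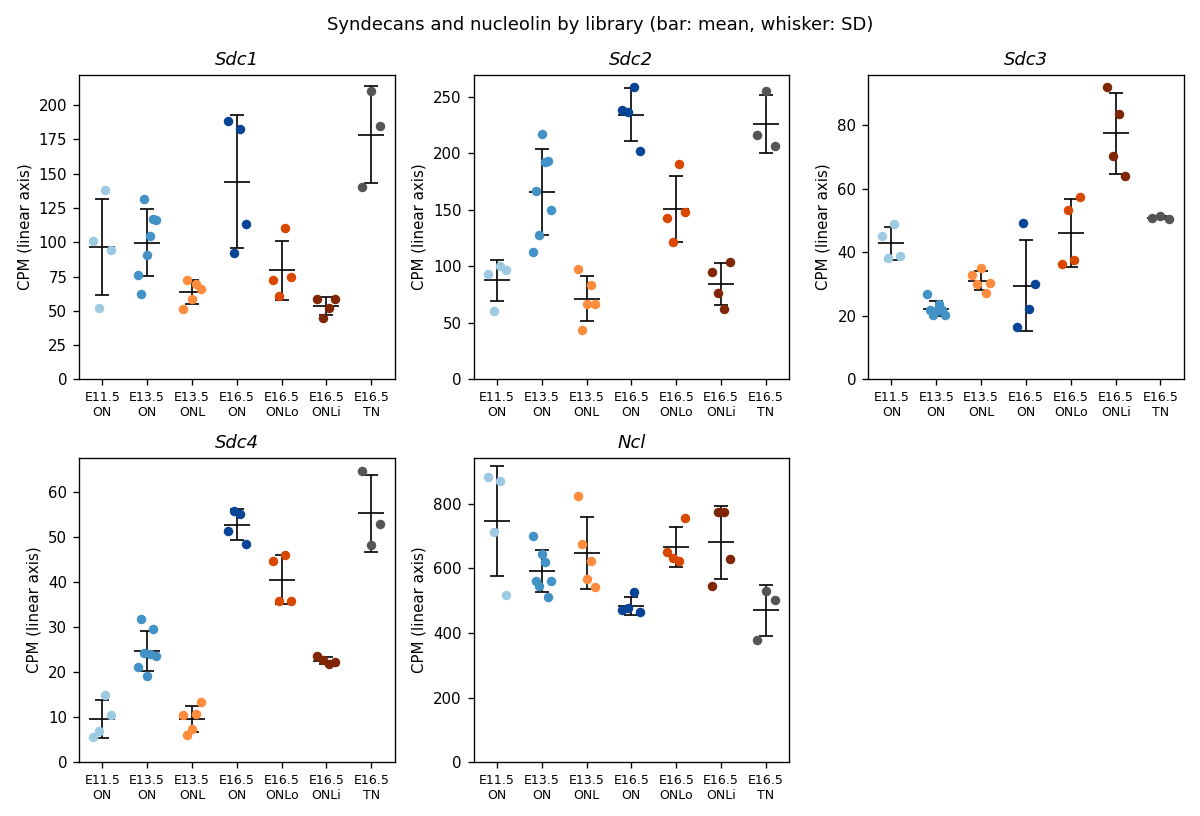
CPM of Sdc1, Sdc2, Sdc3, Sdc4 and Ncl (vertical axes, linear, TMM-scaled) in each of 31 libraries (points) by group, with the mean (bar) and SD (whisker) and groups as in the plot of ligands and receptors. Sdc2 and Sdc4 step down from ON to ONLo to ONLi at E16.5, and Sdc3 is highest in ONLi, at 64.0 to 92.1 CPM.

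Ncl, whose protein works in ribosome assembly and binds midkine at the cell surface, differed by less. It held 472, 478, 526 and 463 CPM in olfactory nerve, 650, 632, 622 and 756 in outer ONL, 544, 776, 773 and 630 in inner ONL, and 379, 530 and 501 in trigeminal nerve, with each ONL library above each nerve library. Inner ONL was 0.45 ± 0.14 (log2) above olfactory nerve (edgeR adjusted p = 0.0183) and 0.56 ± 0.16 above trigeminal nerve (edgeR adjusted p = 0.00772), and outer ONL was 0.49 ± 0.16 above trigeminal nerve (edgeR adjusted p = 0.0251). The 0.38 ± 0.14 between outer ONL and olfactory nerve was not called (edgeR adjusted p = 0.0636) and was with the replicate number as a block (edgeR adjusted p = 0.0421). The inner ONL calls were lost without inner ONL replicate 2 (adjusted p = 0.0644, against olfactory nerve, and 0.0726 with scaling by total counts) or trigeminal replicate 1 (0.0544, against trigeminal nerve), and the outer ONL call without outer ONL replicate 4 or trigeminal replicate 1 (up to 0.107). Of 9 other nucleolar genes, 0 were called in outer ONL against olfactory nerve (median log2 fold change 0.10, against -0.05 over all genes) by edgeR, and 1 in inner ONL, Nolc1. Over all genes the shares called were 25.7% and 40.3%. Against trigeminal nerve 0 of the 9 were called in outer ONL (median 0.13) and 4 in inner ONL, all 4 higher (Polr1a, Polr1b, Nolc1 and Nop56, median 0.10). There the shares over all genes were 31.3% and 43.9%, with 22.1% of genes higher in inner ONL. These nucleolar genes were named after their values were seen.

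**Figure D4:**
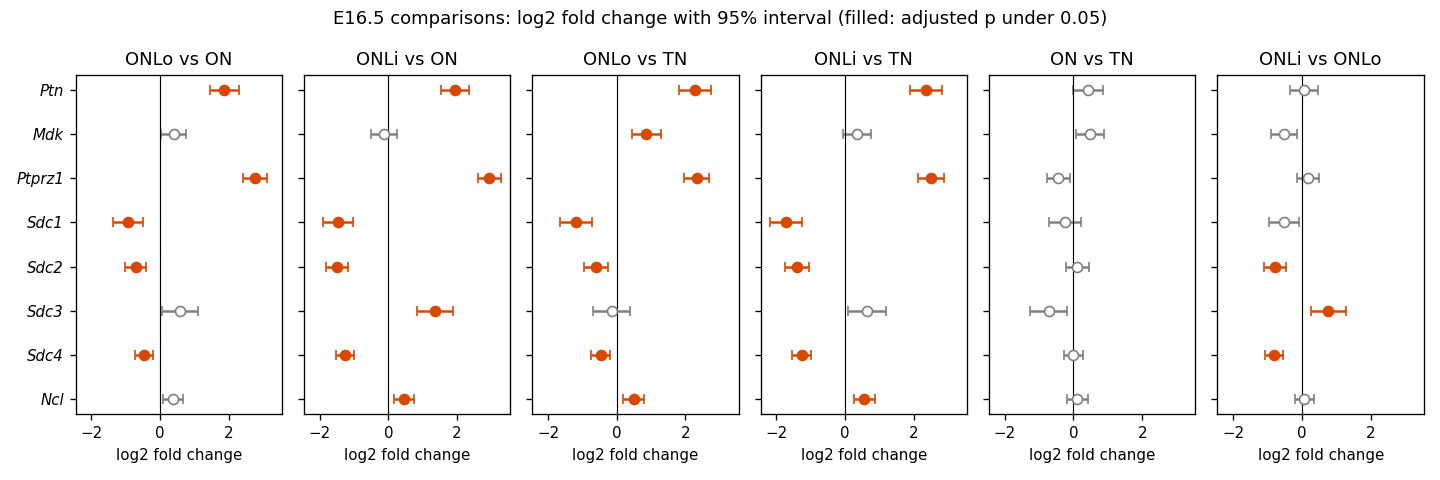
Log2 fold change (horizontal axes) of 8 members in the 6 E16.5 comparisons, with an approximate 95% interval, filled where edgeR's adjusted p was under 0.05. Ptn and Ptprz1 lie right of 0 and Sdc1, Sdc2 and Sdc4 left of 0 in the first 4 panels, and no member is filled in ON against TN.

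The E16.5 olfactory and trigeminal nerves did not differ past the threshold in any member. By edgeR 0 of 8 were called, against 26.9% of genes (15.2% higher and 11.7% lower in olfactory nerve, so that 56.4% of calls were higher, and 73.8% with scaling by total counts alone), with 3 (Mdk, Ptprz1 and Sdc3) at an unadjusted p under 0.05, and DESeq2 called 1, Sdc3. Sdc3 had a log2 fold change of -0.73 ± 0.28 in olfactory nerve (edgeR adjusted p = 0.0629), without overlap between the groups. Scaling by total counts alone, which moved the median of all genes to 0.22, called Ptn (0.61, adjusted p = 0.0363) and Mdk (0.67, adjusted p = 0.0265). Without olfactory nerve replicate 2 edgeR called 2, Sdc3 (-1.08, adjusted p = 0.00281) and Ptprz1 (-0.60, adjusted p = 0.0135). The approximate 95% intervals were -0.02 to 0.85 for Ptn and -0.78 to -0.10 for Ptprz1.

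Between inner and outer ONL 3 syndecans were called and Ptn was not. Of 8 members 3 were called, 1 higher and 2 lower in inner ONL, against 17.7% of genes (10.1% higher, 7.54% lower). Sdc2 was lower in inner ONL, at -0.79 ± 0.16 (edgeR adjusted p = 0.00253), and so was Sdc4, at -0.80 ± 0.13 (edgeR adjusted p = 0.000574). Sdc3 was higher by 0.77 ± 0.26 (edgeR adjusted p = 0.0486), a call lost without any 1 of 6 of the 8 libraries, replicates 1, 2 and 3 of either group (adjusted p up to 0.131), or with scaling by total counts (0.0776). Ptn differed by 0.06 with an approximate 95% interval of -0.34 to 0.46. Mdk was at -0.52 ± 0.19 (edgeR adjusted p = 0.0715; called by DESeq2, adjusted p = 0.0364). All 8 mesenchyme markers were called lower and all 6 olfactory bulb markers higher in inner ONL, and their part in the syndecan differences was not tested.

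The other genes of the system were taken from fixed lists, described for outer ONL against olfactory nerve with median log2 fold changes beside -0.05 over all genes. In that comparison 25.7% of all genes tested were called (10.3% higher, 15.4% lower), and no list was tested against that share. Of 7 extracellular and membrane partners of Ptprz1, 2 were called higher and 2 lower (median 0.55). Cntn1 encodes a contactin that binds Ptprz1. By in situ hybridization the study saw its transcript in OECs and trigeminal Schwann cells, without a clear difference between them, and strongly in olfactory epithelium. In these libraries Cntn1 rose most, from 29.7 ± 7.35 CPM (SD, n = 4) to 217 ± 59.2 (n = 4). The log2 fold change was 2.79 ± 0.24 (edgeR adjusted p = 2.98e-07), close in size to Ptprz1. Its log2 ratio to Sox10 was -2.06 ± 0.47 (SD) in olfactory nerve and -1.61 ± 0.52 in outer ONL, and the groups overlapped. The part of glia in the Cntn1 difference was not tested. The matrix protein gene Tnc was lower, at -1.88 ± 0.34 (edgeR adjusted p = 0.000575), a call lost with all 31 libraries grouped by label (0.16). L1cam, an adhesion molecule gene, was lower too, at -1.64 ± 0.42 (edgeR adjusted p = 0.00759). Of 8 other proposed receptors 1 was higher, Notch2 (1.04 ± 0.19, edgeR adjusted p = 0.000534), and 3 were lower (median -0.21), with Nrp1 at -1.87 ± 0.25 (edgeR adjusted p = 2.67e-05) and Itga6 at -0.78 ± 0.16 (edgeR adjusted p = 0.00168).

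Genes that build or edit the sugar chains were called in both directions. Of 12 heparan sulfate genes tested of 13, 3 were higher and 3 lower (median -0.03). Hs3st1, a 3-O-sulfotransferase, was 2.91 ± 0.23 higher (edgeR adjusted p = 1.60e-07), Hs2st1, the 2-O-sulfotransferase, 1.18 ± 0.13 higher (edgeR adjusted p = 3.48e-06), and Sulf1, which removes 6-O-sulfates outside the cell, lower, at -3.63 ± 0.43 (edgeR adjusted p = 7.99e-06). Of 8 chondroitin sulfate genes 1 was higher and 4 were lower (median -0.77), among them Csgalnact1, which starts the chains, at -1.74 ± 0.22 (edgeR adjusted p = 1.40e-05), and the sulfotransferase genes Chst11 at -1.61 ± 0.34 (edgeR adjusted p = 0.00167) and Chst12 at -0.77 ± 0.16 (edgeR adjusted p = 0.00202). Of 6 glypicans 2 were lower (median -0.45), Gpc6 at -0.90 ± 0.20 (edgeR adjusted p = 0.00266) and Gpc4 at -0.75 ± 0.21 (edgeR adjusted p = 0.0125). The Gpc4 call was lost without olfactory nerve replicate 3 (0.0787) or with all 31 libraries grouped by label (0.108). Of 5 Ptprz1 substrates 1, the kinase gene Fyn, was higher (median 0.14), from 47.7 to 179 CPM (1.83 ± 0.13, edgeR adjusted p = 3.89e-08). Neither of 2 related phosphatases, Ptprg and Ptprs, nor of 2 syndecan binding proteins was called.

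At E13.5 the receptor gene Ptprz1 already differed between ONL and nerve while its ligand gene Ptn did not pass the test. Of 9 members 7 were called, 2 higher and 5 lower in ONL, against 31.5% of 19332 genes (15.4% higher, 16.1% lower), and 5 by label, 3 higher and 2 lower. Ptprz1 held 168, 165, 118, 122 and 129 CPM in the 5 ONL libraries and between 19.1 and 30.9 (median 22.5) in the 7 nerve libraries, without overlap, a log2 fold change of 2.59 ± 0.17 (edgeR adjusted p = 1.23e-12). By label it was -0.22 ± 0.35 (edgeR adjusted p = 0.701). Ptn held 1330, 875, 1270, 1141 and 1485 CPM in ONL and 750 to 1242 (median 974) in nerve, and the groups overlapped (0.31 ± 0.16, edgeR adjusted p = 0.146; by label -1.69 ± 0.51, adjusted p = 0.0218). Olfactory bulb markers summed to 818 to 1103 CPM in the E13.5 ONL and 58.5 to 77.7 CPM in the E13.5 nerve. The 6 glial markers summed to 4301 to 6718 CPM in that ONL and 498 to 1066 CPM in that nerve. Mean Sox10 was 142 and 57.3 CPM. The part of either marker list in the Ptprz1 difference was not tested.

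Mdk was lower in the E13.5 ONL, at 183, 454, 515, 430 and 478 CPM against 633 to 941 (median 835) in nerve, again without overlap. The log2 fold change was -0.98 ± 0.19 (edgeR adjusted p = 0.000151), and -0.79 without the library at 183 CPM, which was the shallowest of the series, while by label it was 0.65 ± 0.21 (edgeR adjusted p = 0.0296). Sdc2 was lower, at -1.22 ± 0.18 (edgeR adjusted p = 3.79e-06; by label -0.62 ± 0.23, adjusted p = 0.0627), as was Sdc4, at -1.37 ± 0.20 (edgeR adjusted p = 3.22e-06; by label -0.93 ± 0.25, adjusted p = 0.0129). Sdc1 was lower, at -0.65 ± 0.21 (edgeR adjusted p = 0.0177; by label 0.12 ± 0.22, adjusted p = 0.742). Sdc3 was 0.48 ± 0.18 higher (edgeR adjusted p = 0.0371; by label 0.69 ± 0.20, adjusted p = 0.0211), a call lost without any 1 of 9 of the 12 libraries (adjusted p up to 0.0926), with scaling by total counts (0.0865) or with no filter (0.0667). The 3 whose loss kept it were labelled E11.5 nerve replicate 4 and E13.5 nerve replicates 2 and 6. Olfactory epithelium progenitor markers summed to 64.8 to 98.2 CPM in the E13.5 ONL and 396 to 610 in the E13.5 nerve. Mesenchyme markers summed to 1870 to 3908 CPM in that ONL and 3543 to 6412 in that nerve. The part of either list in the lower Mdk, Sdc1, Sdc2 and Sdc4 was not tested.

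Through development of the olfactory nerve, the Ptn gene rose and the Mdk gene fell. Ptn held 98.1, 72.1, 75.8 and 85.5 CPM at E11.5 and at least 750 in all 7 libraries at E13.5, a log2 fold change of 3.57 ± 0.21 (edgeR adjusted p = 1.20e-13; by label -0.18 ± 0.51, adjusted p = 0.86). From E13.5 to E16.5 it rose by a further 0.74 ± 0.17 (edgeR adjusted p = 0.0014; by label 0.69 ± 0.50, adjusted p = 0.334). Mdk held 1185, 1682, 1304 and 981 CPM at E11.5, each above all 7 E13.5 nerve libraries, and fell by 0.66 ± 0.20 to E13.5 (edgeR adjusted p = 0.00828; by label 0.94 ± 0.23, adjusted p = 0.00586) and by 0.58 ± 0.20 from there to E16.5 (edgeR adjusted p = 0.0317; by label -0.48 ± 0.23, adjusted p = 0.121). The fall to E13.5 was no longer called without the E11.5 library at 1682 CPM (adjusted p = 0.0575), and the fall to E16.5 without any 1 of 5 of 11 libraries, E13.5 nerve replicates 2 and 4 and E16.5 nerve replicates 1, 3 and 4 (up to 0.131), or with no filter (0.0511). Between E11.5 and E13.5 nerve, markers of olfactory neurons (6 genes) went from 3020 to 3813 CPM to 975 to 1695, Sox10 went from 287 to 358 CPM to 39.9 to 85.3, and the 6 glial markers from 533 to 952 CPM to 498 to 1066. Their part in the changes of Ptn and Mdk was not tested.

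From E11.5 to E13.5 in nerve 7 of 9 members were called, 3 higher and 4 lower, against 36.6% of genes (20.2% higher, 16.4% lower), and 4 by label, 3 higher and 1 lower. From E13.5 to E16.5 in nerve 6 were called, 4 higher and 2 lower, against 28.8% of genes (15.2% higher, 13.6% lower), and 3 by label, 2 higher and 1 lower. Sdc1, at 0.53 ± 0.22 (edgeR adjusted p = 0.0676), was among the 3 called by label (0.64 ± 0.23, adjusted p = 0.0405). Ptprz1 was at 51.3, 19.8, 34.8 and 30.7 CPM at E11.5, overlapping the E13.5 nerve, and fell by 0.55 ± 0.18 (edgeR adjusted p = 0.0178; by label -1.91 ± 0.37, adjusted p = 0.000763), a call lost without the E11.5 library at 51.3 CPM (adjusted p = 0.227) or E13.5 nerve replicate 4 or 5 (0.0605 and 0.056), or with only the groups compared in the fit (0.0651). It then rose by 1.55 ± 0.18 to E16.5 (edgeR adjusted p = 1.92e-07; by label 0.84 ± 0.37, adjusted p = 0.0934). Over that step the 6 glial markers went from 498 to 1066 CPM to 1663 to 3912, and mean Sox10 from 57.3 to 126 CPM. Their part in the rise of Ptprz1 was not tested.

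Among the syndecans Sdc4 rose at both steps, from 9.54 ± 4.17 CPM (SD, n = 4) to 24.7 ± 4.41 (n = 7) and then 52.6 ± 3.43 (n = 4), by 1.38 ± 0.21 (edgeR adjusted p = 9.92e-06; by label 1.44 ± 0.28, adjusted p = 0.000959) and 1.09 ± 0.20 (edgeR adjusted p = 0.000118; by label 1.18 ± 0.25, adjusted p = 0.00111). Sdc2 rose by 0.92 ± 0.19 to E13.5 (edgeR adjusted p = 0.00044; by label 1.09 ± 0.26, adjusted p = 0.00444) and by 0.50 ± 0.19 to E16.5 (edgeR adjusted p = 0.0423; by label 0.61 ± 0.24, adjusted p = 0.0646), the latter a call lost without any 1 of 7 of 11 libraries (adjusted p up to 0.0869). The 4 whose loss kept it were E13.5 nerve replicates 5, 6 and 7 and E16.5 nerve replicate 4. Sdc3 fell by 0.94 ± 0.18 from E11.5 to E13.5 (edgeR adjusted p = 0.000173; by label -0.39 ± 0.22, adjusted p = 0.237). Mesenchyme markers summed to 2185 to 2881 CPM at E11.5, 3543 to 6412 in E13.5 nerve and 9541 to 16178 in E16.5 nerve, and their part in the rise of Sdc2 and Sdc4 was not tested.

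In the ONL itself, 6 of 9 members were higher in outer ONL at E16.5 than in the E13.5 ONL and 0 were lower, against 41.9% of genes called (21.9% higher, 20% lower). By label 5 were called, 3 higher and 2 lower, the latter Mdk and Alk (adjusted p = 0.00021; Alk has no fold here). Ptn rose by 2.38 ± 0.19 (edgeR adjusted p = 9.37e-11; by label 4.34 ± 0.60, adjusted p = 2.46e-06), Ptprz1 by 1.80 ± 0.19 (edgeR adjusted p = 1.48e-08; by label 3.90 ± 0.43, adjusted p = 7.51e-08) and Sdc4 by 2.08 ± 0.22 (edgeR adjusted p = 1.45e-08; by label 1.73 ± 0.28, adjusted p = 2.13e-05). Each E16.5 library was above each E13.5 library for these 3 genes. Glial markers summed to 4301 to 6718 CPM in the E13.5 ONL against 18666 to 32861 in outer ONL, and olfactory bulb markers to 818 to 1103 CPM against 9.66 to 152, and their part in these rises was not tested. Mdk rose by 0.86 ± 0.21 (edgeR adjusted p = 0.00146; by label -0.68 ± 0.24, adjusted p = 0.0308) and Sdc2 by 1.09 ± 0.20 (edgeR adjusted p = 6.59e-05; by label 0.59 ± 0.26, adjusted p = 0.0783). Sdc3 rose by 0.57 ± 0.20 (edgeR adjusted p = 0.0212; by label 0.27 ± 0.23, adjusted p = 0.386), a call lost without outer ONL replicate 2 or 4 (adjusted p up to 0.0966). Ncl differed by 0.04 ± 0.15 (by label -0.09 ± 0.15).

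**Figure D5:**
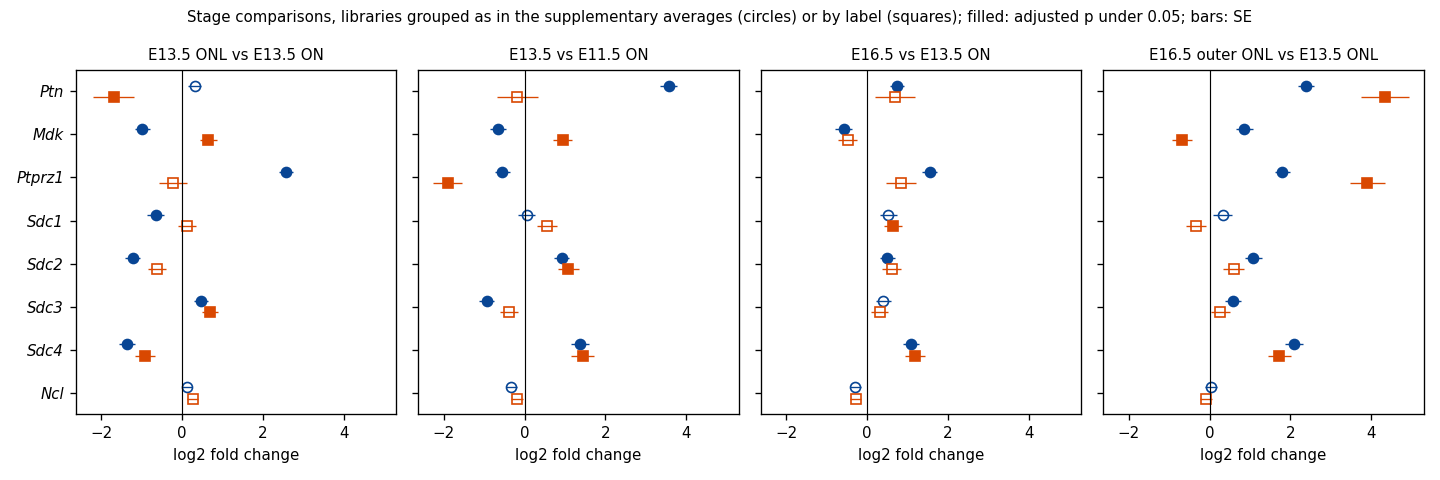
Log2 fold change (horizontal axes) of 8 members in 4 stage comparisons with early libraries grouped as described above (circles) or by label (squares), with SE bars, filled where edgeR's adjusted p was under 0.05. Ptprz1 in E13.5 ONL against nerve lies at 2.59 by the former and -0.22 by the latter, and Ptn in E13.5 against E11.5 nerve at 3.57 and -0.18.

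Whether the ONL to nerve difference changed between E13.5 and E16.5 was tested directly. It changed in 4 of 9 members, all 4 towards higher values in outer ONL, against 12.3% of genes called (5.59% higher, 6.75% lower), and in 2 by label, Ptn and Ptprz1. The change was 1.64 ± 0.26 for Ptn (edgeR adjusted p = 6.43e-05; by label 3.65 ± 0.78, adjusted p = 0.00224) and 1.44 ± 0.29 for Mdk (edgeR adjusted p = 0.00105; by label -0.19 ± 0.33, adjusted p = 0.765). Sdc4 changed by 0.99 ± 0.30 (edgeR adjusted p = 0.027; by label 0.55 ± 0.38, adjusted p = 0.391), a call lost without 5 of the 20 libraries, those labelled E11.5 nerve replicate 2 or 3, E16.5 nerve replicate 4 and outer ONL replicate 1 or 3 (adjusted p up to 0.0622). For Ptprz1, whose difference was large at both stages, the change was 0.25 with an approximate 95% interval of -0.27 to 0.78 (edgeR adjusted p = 0.645; by label 3.06 ± 0.56, adjusted p = 0.00055). The other called member was Alk, whose libraries here held at most 22 counts each.

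Alk was the member of the earliest nerve. Its raw counts were 646, 1015, 352 and 214 in the 4 E11.5 libraries, or 17.1, 27.5, 14.6 and 6.91 CPM. In the 7 E13.5 nerve libraries they were between 0 and 22, with a median of 8, and in the 5 E13.5 ONL libraries at most 2. At E16.5 they were at most 2 in nerve, 8 in outer ONL, 1 in inner ONL and 0 in all 3 trigeminal libraries. From E11.5 to E13.5 nerve Alk was 24.3-fold lower (log2 fold change -4.60 ± 0.70, edgeR adjusted p = 8.20e-06; by label 4.21 ± 1.62, adjusted p = 0.0722). Alk was also called lower in E13.5 ONL than in nerve (edgeR adjusted p = 0.00621; by label called higher, adjusted p = 0.00115) and lower in E16.5 than in E13.5 nerve (edgeR adjusted p = 0.00716; by label 0.0386), where no fold is given because 1 group of each held at most 2 counts in every library.

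Of the genes related to Alk, its ligand gene Alkal2 was highest in the same 4 libraries, at 33.6 to 84.8 CPM. It was at 2.25 to 11.3 CPM in E13.5 nerve (log2 fold change -3.19 ± 0.40, edgeR adjusted p = 2.91e-07; by label -0.54, adjusted p = 0.483). At E16.5 it was at 13.7 to 21.3 CPM in olfactory nerve, 5.19 to 9.85 in trigeminal nerve, 0.46 to 2.84 in outer ONL and 0.0752 to 0.422 in inner ONL, with a log2 fold change of -3.71 ± 0.45 in outer ONL against olfactory nerve (edgeR adjusted p = 1.06e-05). The other ligand gene, Alkal1, held 1 count in all 31 libraries together, and the receptor gene Ltk at most 36 counts in any library, 1.66 CPM or less.

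For Ptn, Mdk and Ptprz1, the genes with the most similar levels over all 31 libraries were found by Pearson's r of log2(CPM + 0.5), among 10712 genes with a mean of at least 10 CPM. These are descriptions over libraries that share tissue and stage. For Ptprz1 they were Rlbp1 (r = 0.981), Slc13a3 (0.969) and Dst (0.959). Rlbp1, which encodes a retinaldehyde-binding protein, went from 7.83 CPM in E16.5 olfactory nerve to 195 in outer ONL and 147 in inner ONL, with 10.5 in trigeminal nerve. For Ptn they included Fmo1 (0.961) and Mmd2 (0.938). Fmo1, which encodes a flavin-containing monooxygenase, was at a mean of 322 CPM in E16.5 olfactory nerve, 889 in outer ONL, 892 in inner ONL and 375 in trigeminal nerve. For Mdk they were Enkd1 (0.889), Rpp25l (0.882) and Nudt14 (0.876).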

How the data were processed

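Counts per gene were used as the authors deposited them, made with TopHat2 2.1.0 (mm10) and HTSeq from amplified cDNA (SMART-seq V4, Nextera XT; paired ends), tools and build as in the submitters' processing notes. Whether HTSeq counted by strand was not given in the sources used here. Of the 47729 genes, GENCODE M21 (GRCm38, the same assembly) named 47224, and 1 row without a gene was left out. The study's supplementary group averages (FPKM-based, by the authors) served only to check which libraries formed each group. Amplification from little RNA adds spread between libraries, most for low counts.

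Counts were scaled by TMM (edgeR 4.0.16, R 4.3.3) and filtered by filterByExpr. E16.5 comparisons used 1 fit of the 15 E16.5 libraries, and stage comparisons 1 fit of all 31, each with edgeR's quasi-likelihood test and Benjamini-Hochberg adjustment over all genes. Called means an adjusted p under 0.05, and SE is the log2 fold change divided by the root of F. Alternatives were DESeq2 1.42.0, other scalings, no filter, other sets of libraries, grouping by label, a replicate block and each library left out. A count of 3 or fewer in every library of a group was taken as the floor. Tables were made with Python 3.11.15 and pandas 2.3.3. The fits were tested on simulated data.

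Members, lists and tests were chosen with earlier results of these data known. Tests were printed for members called or changed by at least 1 on the log2 scale, with others where a comparison needed them; from each list up to 3 called genes of at least 10 CPM with the largest change in outer ONL against olfactory nerve were named, with Cntn1, Ltk, Alkal1, Alkal2 and Sox10. For 3 members the 3 genes with the most similar levels were named, except 1 that is not reported here. Same-numbered libraries of outer ONL and olfactory nerve deviated together in all 4 pairs (correlation 0.131 to 0.263), by number in the labels only. Pairs of unlike number in that comparison ran from -0.234 to 0.227. No other E16.5 comparison had every same-numbered pair above 0.1. Within each E16.5 group the study gives 1 embryo per piece, and it took olfactory and trigeminal pieces of that stage from shared sections. Labels do not say which pieces of different regions share an embryo. The main fits were not paired, and p-values measure the spread between pieces.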

Additional observations from a re-analysis of the deposited data

Results flagged for a closer look

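Of 51 sets of one gene in one group of 4 to 7 libraries, 4 held a library apart from the others by Dixon's criterion, which chance meets in about 1 in 20. Ptn was at 2568 CPM in E16.5 olfactory nerve replicate 2, against 1277 to 1424 in the other 3, and at 8670 CPM in outer ONL replicate 1, against 5370 to 5795. Mdk was at 183 CPM in 1 library of the E13.5 ONL, the shallowest of the series and labelled E11.5 olfactory nerve replicate 1, against 430 to 515 in the other 4. Sdc2 was at 60.4 CPM in 1 library of the E11.5 nerve, labelled E13.5 ONL replicate 3, against 93.3 to 99.9 in the other 3.

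The ONL to nerve difference changed between E13.5 and E16.5, by the test of that change, by 1.64 on the log2 scale for Ptn (edgeR adjusted p = 6.43e-05), 1.44 for Mdk (0.00105) and 0.99 for Sdc4 (0.027).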

How the results depend on the processing

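In the E16.5 comparisons the differences called kept their direction under every alternative run. Members called in outer ONL against olfactory nerve went from 5 to 3 with all 31 libraries grouped by label, and leaving out 1 library gave 4 to 7. Against trigeminal nerve, olfactory nerve went from 0 to 1 with all 31 libraries (either grouping), DESeq2, no filter or a replicate block, and to 2 with total counts, and leaving out 1 library gave 0 to 2. Inner against outer ONL gave 1658 genes and 0 members in the fit of 31 libraries by label, where Sdc2, Sdc3 and Sdc4 lost their calls (adjusted p 0.0603 to 0.0727), as did Sdc2 and Sdc4 in outer ONL against either nerve (0.124 to 0.436). With the replicate number as a block, Ncl in outer ONL (0.38, adjusted p = 0.0421) and Sdc3 in olfactory against trigeminal nerve (-0.83, adjusted p = 0.0428) gained a call, and it changed no other member's call at that stage.

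Grouping the early libraries by label changed most. Genes called fell to 3421 between E13.5 ONL and nerve and to 3380 between E13.5 and E11.5 nerve, and members called to 4 in the latter, 3 from E13.5 to E16.5 nerve and 2 for the change of the ONL to nerve difference. Signs turned in E13.5 ONL against nerve for Mdk (0.65), Ptprz1 (-0.22), Sdc1 (0.12) and Cntn1 (-0.41), from E11.5 to E13.5 for Ptn (-0.18), Mdk (0.94) and Alk (4.21), and for Mdk between outer and E13.5 ONL (-0.68) and in the change of the difference (-0.19). Over all 9 members, called or not, 5, 3, 4 and 4 signs turned in these comparisons. Mean CPM by label at E11.5 were 1154 for Ptn, 396 for Mdk, 143 for Ptprz1, 0.0162 for Alk and 31.3 for Sdc3. In E13.5 ONL they were 315 for Ptn, 1199 for Mdk, 32.7 for Ptprz1, 13.4 for Alk, 100.5 for Sdc1, 100.1 for Sdc2 and 38.3 for Sdc3, and in E13.5 nerve 37.9 for Ptprz1. These follow from which libraries enter each group. Scaling by total counts moved trigeminal Mdk to 359, Ptprz1 to 84.6, Sdc2 to 198 and Sdc3 to 44.6 CPM and inner ONL Sdc4 to 21.4, and put the median over all genes between -0.12 and 0.22 (log2).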
